A study of Mus musculus with 6 samples.

Results

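The Gimap genes (GTPases of the immunity-associated protein family) were followed in stage 0 iNKT cells, the earliest committed precursors of invariant natural killer T cells in the thymus. The 8 genes Gimap1, Gimap3, Gimap4, Gimap5, Gimap6, Gimap7, Gimap8 and Gimap9 were taken by symbol from the 48397 genes of the count table, whatever their counts. The 6 libraries, 3 from BALB/c mice (wild type) and 3 from SKG mice (BALB/c background, with a Zap70 allele of reduced function), were compared to ask whether weaker TCR signaling alters gene expression just after positive selection. All mice were 8 to 10 weeks old, and both groups were sorted by the same gate (tetramer+, CD44-, CD24+, CD69+, CD4 low or negative, CD8-). Each library came from about 1000 cells pooled from the thymi of 3 mice, so a replicate is a pool.

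Gimap proteins are small GTPases found mainly in lymphocytes. Several sit on intracellular membranes, including those of mitochondria, lysosomes and the endoplasmic reticulum, and the family is known for keeping naive T cells alive. In conventional thymocytes their transcripts are low at the double-positive stage and higher after selection, when cells prepare to leave the thymus. Mice without Gimap5 lose peripheral T cells, and Gimap1 is needed for the survival of mature B and T cells.

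The 8 genes lie in one cluster of 124 kb on chromosome 6 of GRCm38, from 48647234 to 48770851. In order, these are Gimap8 (48647234 to 48660875), Gimap9 (48676129 to 48679114), Gimap4 (48684549 to 48692060), Gimap6 (48701582 to 48708225), Gimap7 (48718621 to 48724636), Gimap1 (48739054 to 48743795), Gimap5 (48746197 to 48754210) and Gimap3 (48764464 to 48770851). Gimap6 and Gimap3 are read from the minus strand and the others from the plus strand. All are annotated as protein coding.

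The coding sequence of every member holds the loop that grips the phosphates of GTP, and its bases are shown because every member carries it, as do many other proteins that bind GTP or ATP. It was found by translating the annotated coding sequence and searching for glycine, 4 residues of any kind, glycine, lysine and then serine or threonine. Capitals mark the codons of the fixed residues, and each stretch of 24 bases lies within 1 coding exon.
Gimap1 (chr6:48742552-48742575, plus strand): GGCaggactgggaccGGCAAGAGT
Gimap3 (chr6:48765887-48765910, minus strand): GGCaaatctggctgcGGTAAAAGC
Gimap4 (chr6:48690421-48690444, plus strand): GGAaaaactggagcaGGAAAGAGT
Gimap5 (chr6:48752594-48752617, plus strand): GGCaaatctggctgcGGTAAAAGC
Gimap6 (chr6:48702750-48702773, minus strand): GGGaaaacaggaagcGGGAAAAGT
Gimap7 (chr6:48723524-48723547, plus strand): GGGaaaacaggaagtGGAAAGAGC
Gimap9 (chr6:48677523-48677546, plus strand): GGGaagactggaaatGGGAAGAGT
Gimap8, loop 1 (chr6:48650256-48650279, plus strand): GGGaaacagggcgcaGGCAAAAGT
Gimap8, loop 2 (chr6:48656119-48656142, plus strand): GGGaagcgtggtgttGGGAAAAGT
Gimap8, loop 3 (chr6:48658746-48658769, plus strand): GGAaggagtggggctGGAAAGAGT
Gimap8 stood apart with 3 such loops in 688 codons, whereas the others had 1 loop in 291 to 328 codons. The loops of Gimap3 and Gimap5 were the same base for base.

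Gimap3 and Gimap5 are close copies, which matters for counting. Over 898 aligned coding bases 807 (89.9%) were identical, and their longest identical coding run was 140 bases. It is given here because a 50-nt read inside it cannot be placed on one gene. It lies at chr6:48765681-48765820 (minus strand, Gimap3) and chr6:48752684-48752823 (plus strand, Gimap5).
Gimap3 and Gimap5: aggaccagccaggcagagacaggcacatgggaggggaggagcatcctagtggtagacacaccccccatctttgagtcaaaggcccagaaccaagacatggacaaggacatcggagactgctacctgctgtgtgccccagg
Of all 50-base windows of the annotated transcripts, 190 were shared by these genes, 7.52% of those of Gimap3 and 4.53% of those of Gimap5. No 50-base window was shared between any other members. Gimap1 shared 36.0% of its exon bases with the antisense transcript Gimap1os and with Gm28053, while Gimap5 and Gimap7 shared 3.69% and 3.48% of theirs with the same Gm28053, a gene annotated from Gimap7 to Gimap5. Reads were counted without strand, and Gm28053 lies on the same strand as Gimap1, Gimap5 and Gimap7. A read in such a stretch therefore cannot be given to one of the overlapping genes.

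Counted reads per library ranged from 37176544 to 43115544, and genes with at least 10 reads from 10835 (SKG replicate 3) to 14791 (SKG replicate 1). Of the gated and lineage genes, Cd69, Egr2, Cd3e, Trbc2 and Zbtb16 were read in all libraries at means of at least 119 CPM per genotype, and Cd24a at 25.1 CPM in BALB/c and 70.4 CPM in SKG. Cd69 (312 to 391 CPM in BALB/c, 152 to 250 in SKG) and Egr2 (1097 to 1546 CPM in BALB/c, 493 to 956 in SKG), which TCR signals induce, were lower in every SKG library, with edgeR adjusted p = 0.686 and 0.834, and DESeq2 called Cd69 (adjusted p = 0.0438). Of the 7 markers of mature iNKT1 and NK cells, Tbx21 and Ncr1 had 0 reads in all 6 libraries, Klrb1c, Klrd1 and Gzma were at 0 in at least 1 library, and most of the summed level was Il2rb (146 to 297 CPM). Nkg7, a gene of cytotoxic granules, was higher in every BALB/c library (362, 428 and 673 reads, against 51, 0 and 112 in SKG). The endothelium also uses Gimap genes. Of its 6 markers, Cdh5 was at 0 in all libraries while Kdr and Tek had at most 5 reads in a library. Esam was read in every library (29 to 294 reads), and Egfl7 had 0 to 144 reads per library. The summed endothelial level, nearly all from Pecam1, which T cells also make, was 98.8 to 171 CPM in BALB/c and 144 to 162 CPM in SKG. The summed markers of double-positive thymocytes (66.5 to 437 CPM in BALB/c, 71.1 to 221 in SKG), B cells (6.87 to 94.9 and 4.59 to 44.96), myeloid cells (99.0 to 228 and 75.2 to 277), mature iNKT1 and NK cells (167 to 293 and 205 to 304), thymic epithelium (28.1 to 40.6 and 10.0 to 86.9) and erythroid cells (0.0270 to 69.7 and 0.0515 to 0.691) overlapped between the genotypes. Not every marker gene did, and among those of mature, export-ready T cells Klf2 was higher in every SKG library (values below), whereas Ccr7 (58.9 to 89.8 CPM in BALB/c, 41.6 to 139.5 in SKG), S1pr1 (0 to 9.36 and 7.49 to 19.7) and Il7r (0.135 to 23.95 and 2.88 to 26.2) overlapped. The part of such cells in the Gimap values was not tested.

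No difference in a Gimap transcript between the genotypes was detected. All 8 genes passed the filter on low counts, and edgeR's quasi-likelihood test called 0 of them (FDR below 0.1, change of 1.5-fold or more), against 0% of the 12312 genes tested. The lowest edgeR adjusted p over all genes was 0.212, so that test called no gene of any kind. The study, with DESeq2 at the same thresholds, reported genes that differed between the genotypes. At an unadjusted p under 0.05 edgeR gave 0 members, against 5.45% of all genes. DESeq2 called 0 members, against 1.54% of all genes, and limma-voom called 0 members and 0 genes. The SKG and BALB/c libraries overlapped for each of the 8 genes, whereas 13.9% of all tested genes had libraries that did not overlap. The median log2 fold change of the family, SKG over BALB/c, was -0.0026, with 4 genes above 0 and 4 below, beside -0.02 and 49% above 0 over all genes. In bulk RNA, fewer cells of a kind and less RNA per cell cannot be told apart. Levels are in CPM, counts relative to the library total after TMM scaling, and fold changes are SKG over BALB/c on the log2 scale.

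**Figure D1:**
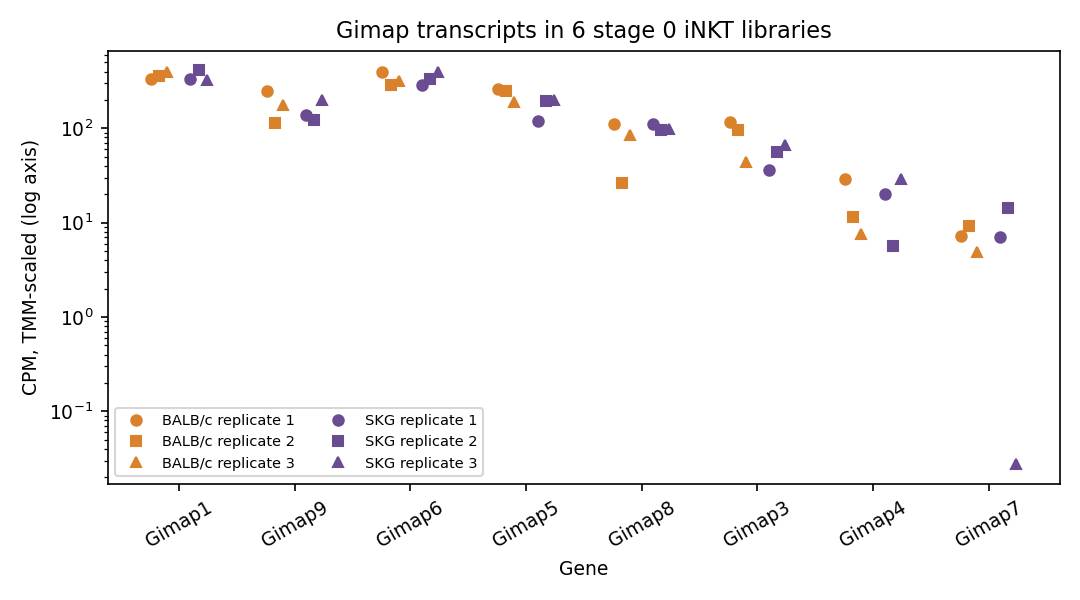
CPM (log axis) of each Gimap gene in each library, with BALB/c in orange and SKG in purple and a symbol for each replicate number. Points of both genotypes interleave for every gene, and SKG replicate 3 stands alone for Gimap7 with 1 read.

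Gimap1 and Gimap6 were the steadiest members. Gimap1 was at 330, 356 and 397 CPM in BALB/c replicates 1 to 3 and at 336, 411 and 323 CPM in SKG replicates 1 to 3. The highest and the lowest library were both SKG, so one genotype enclosed the other. Its fitted log2 fold change was -0.02 (standard error 0.16, edgeR adjusted p = 0.999), with a 95% interval from -0.39 to 0.36. Reads from the 1107 exon bases that it shares with other genes cannot be assigned for certain, and Gimap1os itself had 146 to 536 reads per library against 11674 to 17918 on Gimap1.

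Gimap6, which has been linked to autophagy in T cells, was at 394, 291 and 315 CPM in BALB/c and at 286, 336 and 396 CPM in SKG. The genotypes covered nearly the same range. The log2 fold change was 0.03 (standard error 0.19, edgeR adjusted p = 0.999), with a 95% interval from -0.42 to 0.48. For these 2 genes the whole interval lay inside a 1.5-fold change in either direction (0.58 on the log2 scale). An interval wholly inside these limits was found for 4.04% of all genes tested. Among genes within 0.5 log2 units of the mean level of Gimap1 and Gimap6, the shares were 30.3% and 28.8%.

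Gimap5 and its close copy Gimap3 had the lowest unadjusted p of the family. Gimap5 was at 259, 251 and 192 CPM in BALB/c and at 121, 197 and 199 CPM in SKG. BALB/c replicates 1 and 2 lay above every SKG library, and BALB/c replicate 3 lay below 2 of them. Its fitted log2 fold change was -0.44 (standard error 0.25, unadjusted p = 0.118, edgeR adjusted p = 0.971), with a 95% interval from -1.03 to 0.15. These values leave room for a fall to 0.490 of the BALB/c level and for a rise to 1.11 times that level.

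Gimap3, a mitochondrial outer membrane member, was at 118, 95.7 and 44.2 CPM in BALB/c and at 35.8, 55.8 and 66.7 CPM in SKG. BALB/c replicates 1 and 2 were the highest, and BALB/c replicate 3 was below 2 of the SKG libraries. The log2 fold change was -0.70 (standard error 0.44, unadjusted p = 0.153, edgeR adjusted p = 0.977), with a 95% interval from -1.75 to 0.34. The number of Gimap3 reads per Gimap5 read, which needs no scaling between libraries, was 0.455, 0.381 and 0.230 in BALB/c and 0.296, 0.284 and 0.334 in SKG, and the genotypes overlapped in this ratio too.

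Gimap8, the member with 3 GTP-binding loops, was at 110, 26.1 and 85.2 CPM in BALB/c and at 111, 97.1 and 98.4 CPM in SKG. BALB/c replicate 2 stood apart with 969 reads where the other libraries had 3560 to 4538. For Gimap8 the log2 fold change was 0.47 (standard error 0.50, edgeR adjusted p = 0.991), and without BALB/c replicate 2 it was 0.06. The fitted difference of Gimap8 therefore rested on that library.

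Gimap9 was at 251, 115 and 175 CPM in BALB/c and at 138, 124 and 201 CPM in SKG. BALB/c held both the highest and the lowest library, the lowest again being replicate 2. The log2 fold change was -0.23 (standard error 0.33, edgeR adjusted p = 0.991), with a 95% interval from -1.02 to 0.57.

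The members with the fewest reads were Gimap4 and Gimap7. Gimap4, which in T cells has been tied to the pace of cell death, was at 29.0, 11.6 and 7.59 CPM in BALB/c and at 20.3, 5.69 and 29.1 CPM in SKG. Each genotype held high and low libraries, and the log2 fold change of 0.19 (standard error 0.85, edgeR adjusted p = 0.997) had a 95% interval from -1.85 to 2.24.

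Gimap7, whose protein can stimulate GTP hydrolysis by other family members, was read 297, 338 and 220 times in the BALB/c libraries and 281, 558 and 1 times in the SKG libraries. SKG replicate 1 lay within the BALB/c range and SKG replicate 2 above it, while in SKG replicate 3 the gene was nearly missing. The log2 fold change was 0.01 (standard error 1.59, edgeR adjusted p = 1.000), with a 95% interval from -3.80 to 3.82, so that a change of several fold in either direction was not detectable at this spread. Without SKG replicate 3 it was 0.61. Such gaps were common in these libraries: among 728 tested genes within 0.5 log2 units of the mean level of Gimap7, 26.0% had a library with at most 1 read.

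**Figure D2:**
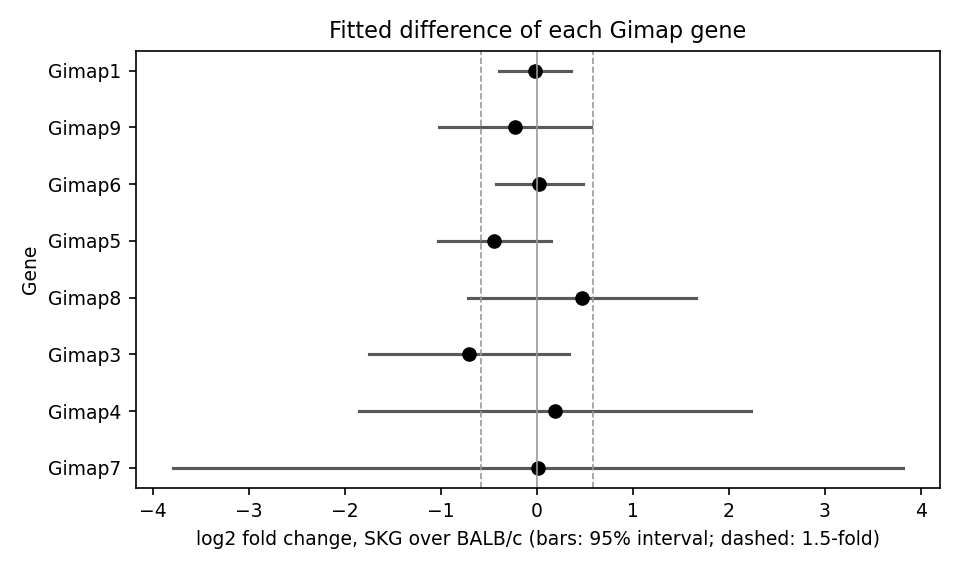
Fitted log2 fold change (SKG over BALB/c) of each Gimap gene, with its 95% interval from edgeR as a bar and dashed lines at a 1.5-fold change. Every interval covers 0, and only those of Gimap1 and Gimap6 stay between the dashed lines.

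The spread between libraries of one genotype differed widely within the family. On the log2 CPM scale, the standard deviation within genotypes was 0.16 for Gimap1, 0.23 for Gimap6, 0.34 for Gimap5, 0.48 for Gimap9, 0.62 for Gimap3, 0.79 for Gimap8, 1.12 for Gimap4 and 2.90 for Gimap7. Genes with fewer reads varied more throughout the table. Gimap8 had a larger spread than 91.2% of 1938 genes within 0.5 log2 units of its level, and Gimap9 had a larger spread than 82.6% of 1347 genes. Gimap1 was more even than most, with 17.1% of 515 genes of like level below it.

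**Figure D3:**
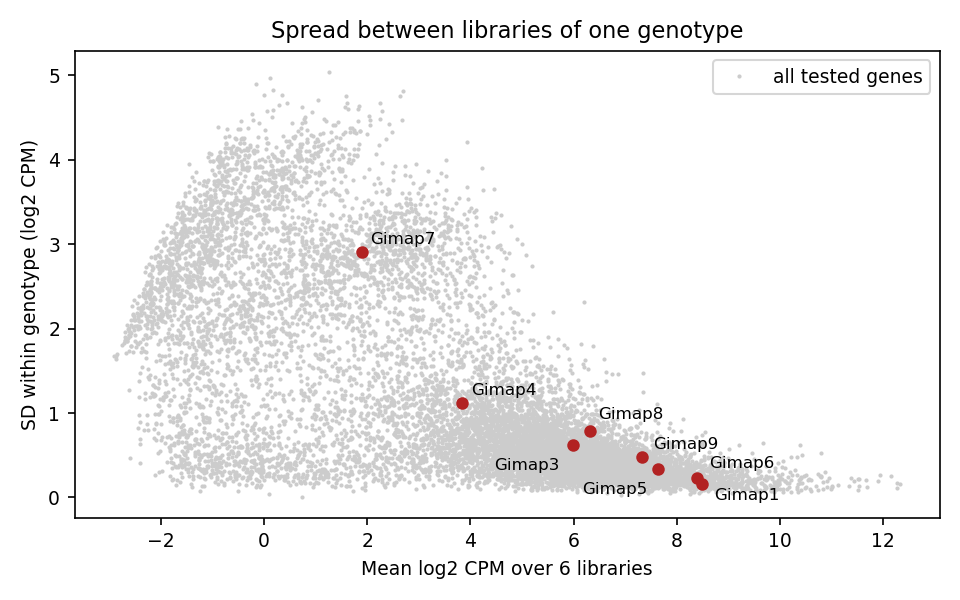
Standard deviation of log2 CPM within genotypes (y axis) against the mean log2 CPM over 6 libraries (x axis) for all tested genes in grey and the Gimap genes in red. Gimap1 and Gimap6 sit at the high-level, low-spread end, and Gimap7 sits at 2.90 among genes that are missing from some libraries.

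Levels can be compared between genes only per length, and were divided by the merged exon length of each gene. Gimap1 had the highest median over the 6 libraries, 113 CPM per kb, followed by Gimap9 at 95.1 and Gimap6 at 93.2. On this length these 3 were not separated, since Gimap1 was above Gimap9 in 4 of 6 libraries and Gimap9 above Gimap6 in 4 of 6. The length of Gimap1 includes the 36.0% of exon bases shared with other genes, whereas Gimap9 and Gimap6 share none. The level of Gimap1 per kb is therefore less certain. Gimap5 came next at 47.7 CPM per kb and was below Gimap6 in 6 of 6 libraries, with no overlap of their ranges. Gimap8 at 26.4 and Gimap3 at 23.8 changed places between libraries. Gimap4 followed at 8.66 and Gimap7 at 3.05 CPM per kb, with Gimap4 above Gimap7 in 5 of 6 libraries. Among 11918 tested genes with a known length, Gimap1 was higher than 96.9%, Gimap5 than 89.8%, Gimap8 than 80.5% and Gimap7 than 34.6%. With the longest protein-coding transcript as the length, a choice made after the data were seen, the order stayed the same, but Gimap1 moved to 232 and Gimap5 to 101 CPM per kb, the latter then close to Gimap6 at 102. On that length the lowest library of Gimap1 (216 CPM per kb) lay above the highest of Gimap9 (182), and the ranges of Gimap5 (61.9 to 133) and Gimap6 (89.9 to 125) overlapped, so which neighbours were separated depended on the length used.

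**Figure D4:**
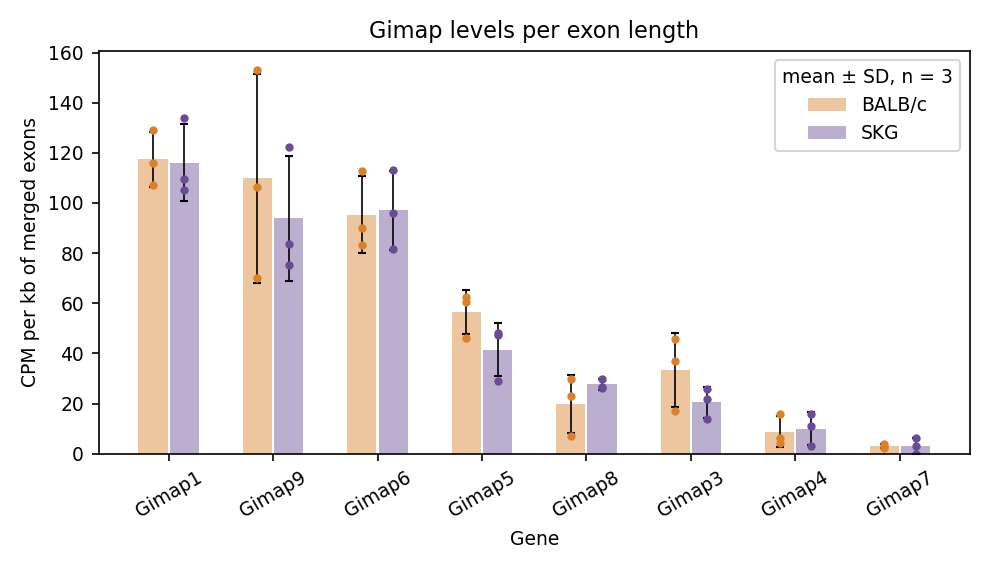
CPM per kb of merged exons for each Gimap gene, as bars for the mean, lines for the SD (n = 3 libraries) and points for each library. Gimap1, Gimap9 and Gimap6 form the upper group at medians of 93.2 to 113, and the BALB/c and SKG points overlap for each gene.

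Together the 8 genes took 0.149%, 0.114% and 0.128% of all counted reads in BALB/c replicates 1 to 3 and 0.105%, 0.122% and 0.128% in SKG replicates 1 to 3. The mean share was 0.130% ± 0.0174 (SD, n = 3) for BALB/c and 0.118% ± 0.0116 (SD, n = 3) for SKG, and the libraries of the genotypes overlapped. Within the family, Gimap1 made up 28.5% ± 5.64 (SD, n = 3) of the BALB/c reads and 29.9% ± 4.62 of the SKG reads, and Gimap6 made up 25.8% ± 0.570 and 28.1% ± 1.76. The share of Gimap6 did not overlap between the genotypes (25.2% to 26.3% in BALB/c, 27.1% to 30.1% in SKG), nor did that of Gimap8 (2.26% to 7.35% in BALB/c, 7.49% to 10.5% in SKG). Gimap5 contributed 18.3% ± 3.11 in BALB/c and 14.2% ± 2.36 in SKG, with overlap, and the other 5 shares overlapped too. Shares of one total depend on each other, and none was tested. Among all tested genes, 13.9% had a CPM that did not overlap between the genotypes.

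Ratios of reads between 2 members of the same library do not depend on scaling. Of the 28 ratios, many of which share a member, 3 did not overlap between the genotypes, and no ratio was tested. For comparison, the CPM of 13.9% of all tested genes did not overlap. Gimap5 reads per Gimap6 read were 0.658, 0.864 and 0.609 in BALB/c and 0.423, 0.584 and 0.504 in SKG. Gimap5 reads per Gimap8 read were 2.35, 9.61 and 2.25 in BALB/c and 1.09, 2.02 and 2.03 in SKG. Gimap8 reads per Gimap9 read were 0.438, 0.227 and 0.487 in BALB/c and 0.805, 0.784 and 0.490 in SKG. In the last of these, the nearest libraries of the genotypes were 0.487 and 0.490.

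Other transcripts of the locus were also without a detected difference. Within 250 kb of the cluster 19 further genes had at least 10 reads in a library, and 12 of them were tested. EdgeR called 0 of the 12, with 0 at an unadjusted p under 0.05, and the libraries overlapped for each. Gimap1os was at 13.0, 12.8 and 6.51 CPM in BALB/c and at 5.98, 3.76 and 8.77 CPM in SKG (log2 fold change -0.80, standard error 0.79, edgeR adjusted p = 0.991). Gm28053 was read 263, 0 and 46 times in the BALB/c libraries and 173, 202 and 0 times in the SKG libraries. The non-coding transcripts next to Gimap5 were even, with 261 to 401 reads per library for Gm44226 and 118 to 204 for 4833403J16Rik. The other tested neighbours, all with overlapping libraries, were Zfp467, Zfp862-ps, Gm10243, Atp6v0e2, Lrrc61, Repin1, Zfp775 and Tmem176b, and those with too few reads to test were Sspo, Gm7887, AI854703, Gm17834, Gm44764, Aoc1 and Gm19173.

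The family was set beside 22 genes that rise as thymocytes mature or keep naive T cells alive. Of the 19 tested, edgeR called 0, 3 were higher and 2 lower in SKG at an unadjusted p under 0.05 (3.07% and 2.38% of all genes), and 3 were higher and 4 lower without overlap (6.77% and 7.12% of all genes). The median log2 fold change was 0.15. Klf2, a factor that drives export genes, was at 4.44, 0.377 and 15.8 CPM in BALB/c and at 66.0, 84.0 and 107 CPM in SKG (log2 fold change 3.64, standard error 1.17, edgeR adjusted p = 0.830). Ifngr1, a chain of the interferon gamma receptor, was at 75.6, 119 and 73.1 CPM in BALB/c and at 174, 163 and 149 CPM in SKG (edgeR adjusted p = 0.734). Tnfsf8, the CD30 ligand gene, was at 441, 417 and 412 CPM in BALB/c and at 199, 270 and 235 CPM in SKG (edgeR adjusted p = 0.617). Cd52, a surface glycoprotein gene, was at 47.3, 49.3 and 52.6 CPM in BALB/c and at 31.2, 15.4 and 25.4 CPM in SKG (edgeR adjusted p = 0.871). DESeq2, which called 1.54% of all genes, called Klf2 (higher in SKG, as were 0.918% of all genes) and Tnfsf8 (lower).

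**Figure D5:**
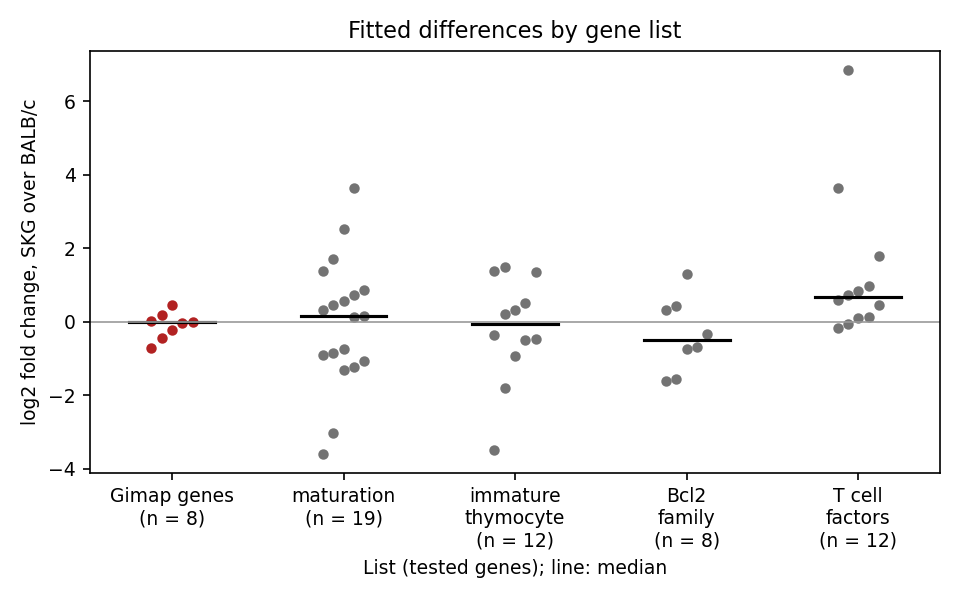
Fitted log2 fold changes (SKG over BALB/c) of the tested genes of each list, 1 point per gene, with the median as a line. The 8 Gimap genes lie between -0.70 and 0.47 around a median of -0.0026, and the 19 maturation genes spread wider around 0.15.

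Of 15 genes that mark immature double-positive thymocytes, 12 were tested and 0 were called by edgeR. In SKG 1 was higher and 0 were lower at an unadjusted p under 0.05 (3.07% and 2.38% of all genes). Without overlap 1 was higher and 1 lower (6.77% and 7.12% of all genes), and the median log2 fold change was -0.06. Cd1d1, which encodes the molecule that presents lipids to iNKT cells, was at 52.3, 20.2 and 53.8 CPM in BALB/c and at 76.2, 96.5 and 151 CPM in SKG (edgeR adjusted p = 0.834). Aqp11, an aquaporin gene, was read 558, 290 and 203 times in the BALB/c libraries and 83, 8 and 1 times in the SKG libraries (edgeR adjusted p = 0.952). Cd24a (log2 fold change 1.49) and Cd8b1 (-0.93) came next by p, and their libraries overlapped.

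Among 8 Bcl2 family genes, which set the threshold for lymphocyte death, edgeR called 0. In SKG 1 was higher and 1 lower at an unadjusted p under 0.05 (3.07% and 2.38% of all genes). Without overlap 1 was higher and 1 lower (6.77% and 7.12% of all genes). Bbc3, which encodes the death-promoting protein Puma, was at 31.01, 35.3 and 46.9 CPM in BALB/c and at 14.6, 10.3 and 13.8 CPM in SKG (log2 fold change -1.55, standard error 0.46, edgeR adjusted p = 0.823). DESeq2, which called 1.54% of all genes, called Bbc3. Mcl1, a survival gene, was at 265, 327 and 360 CPM in BALB/c and at 389, 406 and 492 CPM in SKG (edgeR adjusted p = 0.894). Bcl2 was at 788, 625 and 488 CPM in BALB/c and at 403, 511 and 231 CPM in SKG, with overlap. Bcl2l1, another survival gene, overlapped as well, at 3.56 to 18.2 CPM in BALB/c and 15.7 to 36.2 CPM in SKG.

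Of 12 transcription factors of T cell identity and maturation, edgeR called 0, while 5 were higher and 0 lower in SKG at an unadjusted p under 0.05 (3.07% and 2.38% of all genes). The median log2 fold change was 0.68, and 6 were higher in SKG without overlap (6.77% of all genes). Besides Klf2 these included Tcf7, a Wnt pathway factor, at 359, 175 and 184 CPM in BALB/c and at 732, 882 and 876 CPM in SKG (edgeR adjusted p = 0.617). Runx3, a factor of the CD8 lineage, was read 0, 0 and 5 times in the BALB/c libraries and 60, 403 and 83 times in the SKG libraries. Ets1 was at 876, 1411 and 1200 CPM in BALB/c and at 1665, 1934 and 1722 CPM in SKG (edgeR adjusted p = 0.830). DESeq2 called Tcf7, Runx3, Klf2 and Ets1 higher, as it did 0.918% of all genes. The study itself singled out some of these factors in the same libraries, so their direction is not independent evidence.

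The mean standardized log2 CPM of the 8 genes was highest in BALB/c replicate 1 (0.77) and lowest in SKG replicate 1 (-0.48). Over the 6 libraries, the genes whose log2 CPM followed it most closely were Chchd4 (Pearson's r = 0.994), Arl5c (0.980), BC031181 (0.978), Parp4 (0.978) and Mrps12 (0.978). This is a description of 6 libraries, which share their sort and amplification, picked from 12312 genes. The members themselves did not move as one, with r from -0.22 for Gimap1 and -0.07 for Gimap7 to 0.80 for Gimap9 and 0.83 for Gimap6. BALB/c replicate 1 also held the highest summed markers of double-positive thymocytes (437 CPM), B cells (94.9 CPM) and erythroid cells (69.7 CPM). Those of myeloid cells, mature iNKT1 and NK cells, thymic epithelium and endothelium were highest in other libraries. The part of such cells in this profile was not tested.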

How the data were processed

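RNA of sorted stage 0 iNKT cells was sequenced as 50-nt single reads. Per the labels and the paper's methods, the authors mapped reads to GRCm38 with HISAT2 2.1.0 and assigned them to genes with featureCounts (Subread 1.4.4, Ensembl release 85, mapping quality of at least 10, no strand). The deposited counts are raw, with 37176544 to 43115544 reads per library. A second deposited table of the authors' DESeq2 1.14.1 comparison was not used. The labels name a kit with 18 preamplification cycles and the methods another with 8. PCR copies cannot be told from molecules.

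Genes were filtered with filterByExpr, scaled with TMM and tested with edgeR 4.0.16 (quasi-likelihood F test, R 4.3.3) on all 6 libraries without covariates, with Benjamini-Hochberg adjustment over 12312 genes. Calls needed an FDR below 0.1 and a change of 1.5-fold or more, the study's thresholds. Intervals are 95% t intervals from the fit, unadjusted. Log2 CPM used a prior count of 2. Alternatives were DESeq2 1.42.0 without shrinkage, limma 3.58.1 voom, other scaling, filters, blocks, a covariate and each library left out. Scripts were tested on simulated counts with less spread than these libraries, which checks the code and not the power to detect a change here. Positions, exons and transcript sequences came from GENCODE M21 (GRCm38), with 8 of 8 members matched. P-values measure the spread between libraries, each from 1 pool, in which differences between mice and between preparations cannot be told apart.

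The members and lists were chosen with earlier results of these data known. Named genes are the members, locus genes within 250 kb with at least 10 reads, up to 4 genes of lowest p per list, and the 5 closest profiles. The sum of one marker list, of mature T cells, is not reported here.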

Additional observations from a re-analysis of the deposited data

How the results depend on the processing

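No Gimap gene was called in any of the 17 alternatives, and the lowest adjusted p of a member in any of them was 0.645. Those with a stricter FDR or without the fold-change threshold reused the main edgeR fit. Its lowest adjusted p over all genes was 0.212, so they could call no gene. Only DESeq2 and edgeR without a filter on low counts called any gene at all, so the other alternatives add little to the lack of calls. The fits differed over all genes, where DESeq2 called 189 and edgeR without a filter on low counts 2, against 0 in the main comparison, and DESeq2 called 2 listed maturation genes against 0. The cause was not tested. The fitted directions of Gimap3, Gimap5 and Gimap8 held in every alternative. For members fitted near 0 the sign turned. Gimap1 was at 0.0019 with DESeq2 and with median-ratio size factors, and at 0.088 with the library number as a replicate block. That block put Gimap4 at -0.51 and Gimap7 at -3.31, and the title number as a replicate block put Gimap7 at -1.22, while blocks changed no call. Scaling to library size alone put Gimap6 at -0.0096 and Gimap7 at -0.0094. Gimap7 was at -1.998 with limma-voom and at -0.00046 once detected genes per library were a covariate. Residuals of libraries with the same number correlated between -0.145 and 0.00289. With 3 libraries per genotype, these values cannot show whether libraries of one number were prepared together.

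With 1 library left out, 0 genes and 0 members were called. The log2 fold change of Gimap1 then ranged from -0.12 to 0.064, Gimap3 from -1.01 (without BALB/c replicate 3) to -0.40 (without BALB/c replicate 1), Gimap4 from -0.30 (without SKG replicate 3) to 0.94 (without BALB/c replicate 1), Gimap5 from -0.56 to -0.24, Gimap6 from -0.085 to 0.17, Gimap7 from -0.995 (SKG replicate 2 left out) to 0.61 (SKG replicate 3 left out), Gimap8 from 0.06 (without BALB/c replicate 2) to 0.88 (without BALB/c replicate 1) and Gimap9 from -0.48 to 0.093. The family median ranged from -0.19 to 0.07. With 3 pools per genotype, the 95% intervals leave room for a change of more than 1.5-fold in every member except Gimap1 and Gimap6.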

Other observations

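Gimap7 was not alone in being nearly missing from SKG replicate 3. Counting genes, after the data were seen, whose median over the other 5 libraries was at least 100 reads and that had at most 1 read per 20 of that median in the library in question, 1032 of 9917 genes (10.4%) were nearly missing from SKG replicate 3. The share was 7.93% in BALB/c replicate 1, 4.84% in BALB/c replicate 2, 3.41% in SKG replicate 2, 1.83% in SKG replicate 1 and 0.313% in BALB/c replicate 3. Of 17 such genes within 250 kb of the Gimap cluster, 5 were nearly missing from SKG replicate 3, namely Zfp862-ps, Atp6v0e2, Zfp775, Gm28053 and Gimap7. Their reads there were 11, 1, 4, 0 and 1. Atp6v0e2 had 43 to 590 reads in the other libraries and Zfp775 had 409 to 1210. In BALB/c replicate 2, Gm28053 was the single nearly missing gene of the locus.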
